A study of Homo sapiens with 17 samples.

Results

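A set of 10 genes for proteins that the liver secretes into blood plasma was followed in human lung adenocarcinoma cells: the fibrinogen chains FGA, FGB and FGG, the fibrinogen-like protein FGL1, vitronectin (VTN), alpha-1-antitrypsin (SERPINA1), beta-2-glycoprotein I (APOH), albumin (ALB), transferrin (TF) and the alpha-1-microglobulin and bikunin precursor (AMBP). They were chosen by name, as the probe set (the array's unit of measurement) whose platform annotation gives that 1 symbol. All 10 listed genes were found, each with 1 probe set, among 17958 genes with a probe set of 1 symbol. The groups were A549 cells with wild-type LKB1, A549 with LKB1-K78I, A549 with empty pBABE, H2122 with wild-type LKB1, H2122 with LKB1-K78I and H2122 with empty pBABE. Each held 3 arrays except the last, which held 2, 17 in all. LKB1 is the serine/threonine kinase encoded by STK11, which both lines lack in functional form, and K78I is its kinase-dead mutant. All groups, controls included, were infected with a pBABE retrovirus, selected in 1 µg/mL puromycin for 2 weeks and grown in 5% serum. The labels do not say whether the transduced cells were pools or clones, nor whether replicates were separate cultures, so p-values measure the spread between these arrays. The study compared expression with LKB1 against both controls; values are log2 expression levels made by robust multi-array averaging (RMA), and 1 log2 unit is a factor of 2.

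Fibrinogen is built from the Aα, Bβ and γ chains, encoded by the neighbouring genes FGA, FGB and FGG, and is cleaved by thrombin to fibrin in a clot. Hepatocytes make it, and interleukin-6 raises it in the acute-phase response through STAT3 and C/EBP proteins. Vitronectin is an adhesive plasma protein that binds integrins and the plasminogen activator inhibitor, alpha-1-antitrypsin inhibits neutrophil elastase, beta-2-glycoprotein I binds anionic phospholipids, and albumin and transferrin carry small molecules and iron. Epithelial tumour cells, A549 among them, can transcribe some of these genes outside the liver.

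The fibrinogen promoters are shown first because all 3 chains moved together in A549. Each run holds the 250 bases before the outermost RefSeq gene start on GRCh38.p14, read 5′ to 3′ on the gene's strand. Capitals mark matches, on either strand, to short motifs: the interleukin-6 response core CTGGGA, the STAT motif TTCCNGGAA and the C/EBP motif TTGCNNAA. FGA lies at chr4:154590743-154590992 on the minus strand, FGB at chr4:154562730-154562979 on the plus strand, and FGG at chr4:154612657-154612906 on the minus strand.
FGA: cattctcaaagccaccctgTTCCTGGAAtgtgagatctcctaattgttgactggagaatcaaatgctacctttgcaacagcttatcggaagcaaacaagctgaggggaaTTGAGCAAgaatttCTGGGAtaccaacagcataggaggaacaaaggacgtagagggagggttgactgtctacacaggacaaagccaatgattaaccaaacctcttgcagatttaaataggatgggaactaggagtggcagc
FGB: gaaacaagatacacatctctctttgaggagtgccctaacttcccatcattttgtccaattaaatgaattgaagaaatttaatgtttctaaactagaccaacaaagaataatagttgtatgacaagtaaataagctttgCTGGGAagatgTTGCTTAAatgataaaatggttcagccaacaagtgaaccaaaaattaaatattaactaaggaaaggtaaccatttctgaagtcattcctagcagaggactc
FGG: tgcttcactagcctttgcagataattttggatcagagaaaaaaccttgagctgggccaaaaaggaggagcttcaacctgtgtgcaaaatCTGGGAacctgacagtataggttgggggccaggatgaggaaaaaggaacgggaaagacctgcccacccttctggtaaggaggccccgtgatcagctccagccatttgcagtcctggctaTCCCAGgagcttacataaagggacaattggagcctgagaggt
FGA held the STAT motif 231 bases before the start, the C/EBP motif at 141 and CTGGGA at 127. FGB held CTGGGA at 112 and the C/EBP motif at 101. FGG held CTGGGA at 161 and at 42 bases before the start. CTGGGA, the motif that all 3 chains share, was also in 28.7% of 35116 windows of this length before RefSeq gene starts. The C/EBP motif was in 9.05% of those windows and the STAT motif in 0.968%. A match in letters is a description and does not show binding.

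Some arrays stood apart from their labels or from their group, and the results that rest on them are given with and without them. STK11 was at 9.42, 10.23 and 9.62 log2 units on the A549 LKB1 arrays, against 10.54, 7.14 and 10.42 on the A549 K78I arrays and 6.88, 7.38 and 10.52 on the A549 pBABE arrays. K78I replicate 2 was thus low, like an empty-vector array, and pBABE replicate 3 was high, like a K78I array. In H2122, STK11 was at 11.20, 11.35 and 11.26 with LKB1, 11.27, 11.31 and 11.26 with K78I, and 6.33 and 6.22 with pBABE. By an exact two-sided permutation test of LKB1 against controls the STK11 difference was 0.95 in A549 (p = 0.464) and 1.99 in H2122 (p = 0.339); the K78I arrays, which carry STK11 sequence too, count as controls here. For 3 H2122 samples (pBABE replicate 2, LKB1 replicate 3 and K78I replicate 3) the construct in the source name is not that in the title; titles were used. A list of cell cycle genes had a mean of -0.88 log2 units relative to the A549 average on K78I replicate 2 and -0.37 on pBABE replicate 1, and of -1.37 relative to the H2122 average on pBABE replicate 2.

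The tissue labels were checked against markers. KRT7, KRT8 and KRT18, keratins of simple epithelium, had mean levels at the 99.4, 99.8 and 99.7 percentiles of the genes tested. KRT19 and EPCAM were lower in A549 than in H2122 controls, with log2 differences of -5.81 and -4.18. The lung markers NKX2-1, NAPSA, SFTPB and SFTPC were at the 31.7, 23.4, 22.2 and 19.9 percentiles. Of 8 hepatocyte markers that are not secreted, 6 were measured. CYP3A4 was at the 2 percentile, G6PC1 at 5.6, TAT at 17.2, CYP2E1 at 19.6 and SLC10A1 at 25, within the dimmest 30% of genes. ASGR1, a chain of the asialoglycoprotein receptor, was at 36. It was higher by 1.45 in A549 than in H2122 controls, and it fell by 0.85 with LKB1 in A549 (limma adjusted p = 3.49e-06 and 0.0107). Dim too were PTPRC of leukocytes at the 4.2 percentile and DCN and LUM of fibroblasts at 1.4 and 3.1. The epithelial cadherin CDH1 fell by 1.17 with LKB1 in A549. With 1 exception (PECAM1, lower with LKB1 in H2122), no measured leukocyte or endothelial marker was called in either line, and of 4 fibroblast markers PDGFRA was called, higher with LKB1 in A549. In bulk RNA, fewer cells that express a gene and less RNA per cell cannot be told apart.

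In A549, 6 of the 10 genes fell with LKB1: FGA, FGB, FGG, FGL1, VTN and APOH. None rose. Over all genes 2.95% were called lower and 8.44% were called in either direction. A gene is called at an adjusted p under 0.05 (limma, Benjamini-Hochberg over all genes). The median difference of the 10 genes was -1.58 log2 units, and that of all genes -0.02. The 6 that fell had every LKB1 array below every control array. How many of all genes had such a separation was not counted, here or in the comparisons below.

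FGA, the Aα chain whose end thrombin removes as fibrinopeptide A, was at 4.97, 3.99 and 4.47 on the A549 LKB1 arrays, against 6.997, 10.01 and 7.85 on the K78I arrays and 10.14, 8.64 and 6.33 on the pBABE arrays. The LKB1 arrays lay close together and below all controls, whose own values spread over almost 4 log2 units. These LKB1 levels were about as low as those of VTN in H2122 (4.32 to 4.92). How far the floor sets their closeness and the size of the difference from controls was not tested. FGA fell by 3.85 ± 0.68 log2 units (SE), a 14.4-fold difference, with an adjusted p of 0.00233 (limma). FGB, the Bβ chain, was at 4.25, 3.95 and 4.02 with LKB1, against 5.29, 8.78 and 5.77 with K78I and 8.56, 7.35 and 5.21 with pBABE. The lowest FGB control was within about 1 log2 unit of the highest LKB1 array. FGB fell by 2.75 ± 0.78 (SE; limma adjusted p = 0.0413). FGG, the γ chain that carries the platelet-binding end of fibrinogen, was at 4.69, 4.06 and 4.14 with LKB1, against 5.69, 8.41 and 7.08 with K78I and 9.26, 7.62 and 5.33 with pBABE. FGG fell by 2.93 ± 0.71 (SE; limma adjusted p = 0.0183). For all 3 chains the highest control arrays were K78I replicate 2 and pBABE replicate 1, and pBABE replicate 3 was the lowest.

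**Figure D1:**
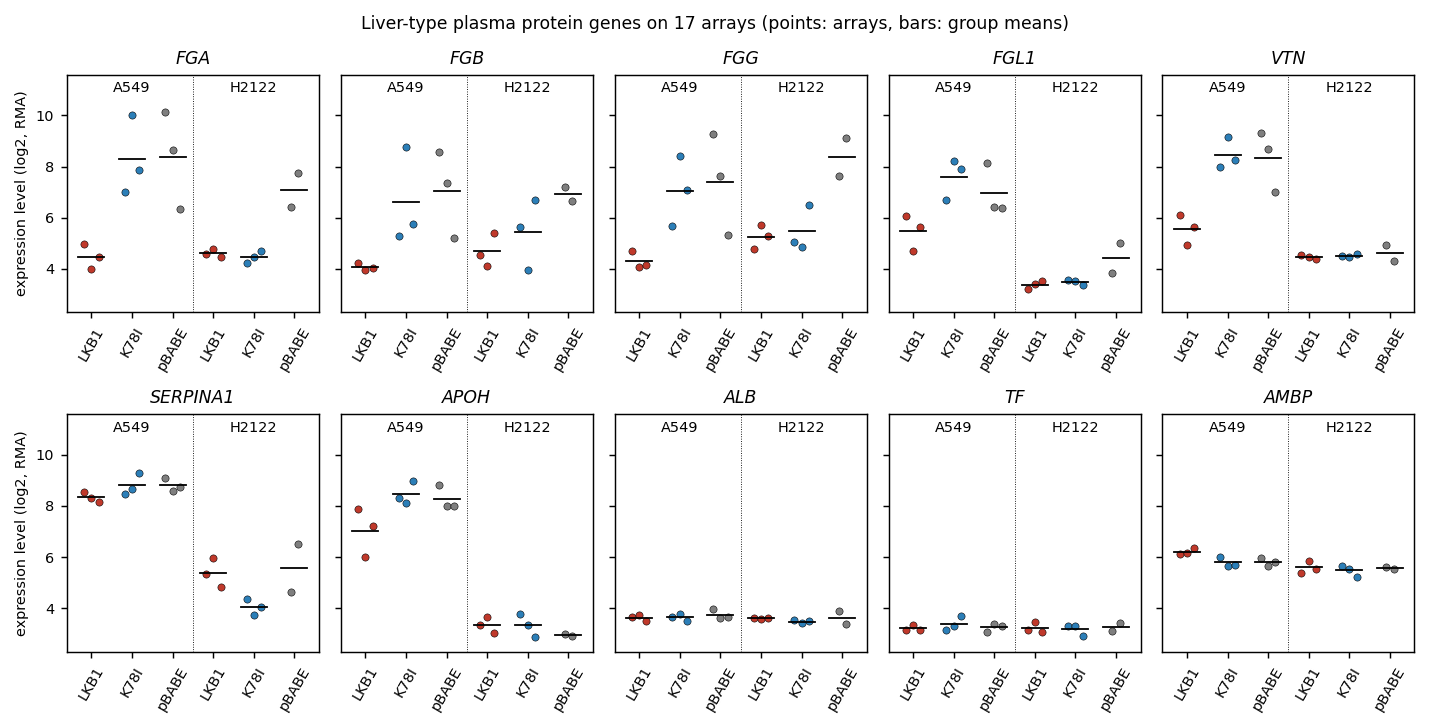
Level of each of the 10 genes on every array (y axis, log2 RMA units; points are arrays, bars are group means), with the A549 groups left of the H2122 groups. In A549 the 3 LKB1 points lie below all 6 control points for FGA, FGB, FGG, FGL1, VTN and APOH, while ALB and TF lie below 4 log2 units on every array.

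The array means of the 3 chains show the spread within the controls. With LKB1 they were 4.64, 3.999 and 4.21 in A549, against 5.99, 9.07 and 6.90 with K78I and 9.32, 7.87 and 5.62 with pBABE. The 3 A549 arrays with STK11 near 7 log2 units, namely pBABE replicates 1 and 2 and K78I replicate 2, held the 3 highest means. The LKB1 arrays had STK11 between 9.42 and 10.23 and the lowest means, below the 3 controls with STK11 above 10. In H2122 the means were 4.63, 4.86 and 5.05 with LKB1, 4.97, 4.43 and 5.98 with K78I, and 7.08 and 7.84 with pBABE, and the 2 pBABE arrays again had the lowest STK11. K78I replicate 2 and pBABE replicate 1 in A549 and pBABE replicate 2 in H2122, highest in their lines, are also the arrays low in cell cycle genes. The part of STK11 or of the cell cycle genes in this order was not tested.

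**Figure D2:**
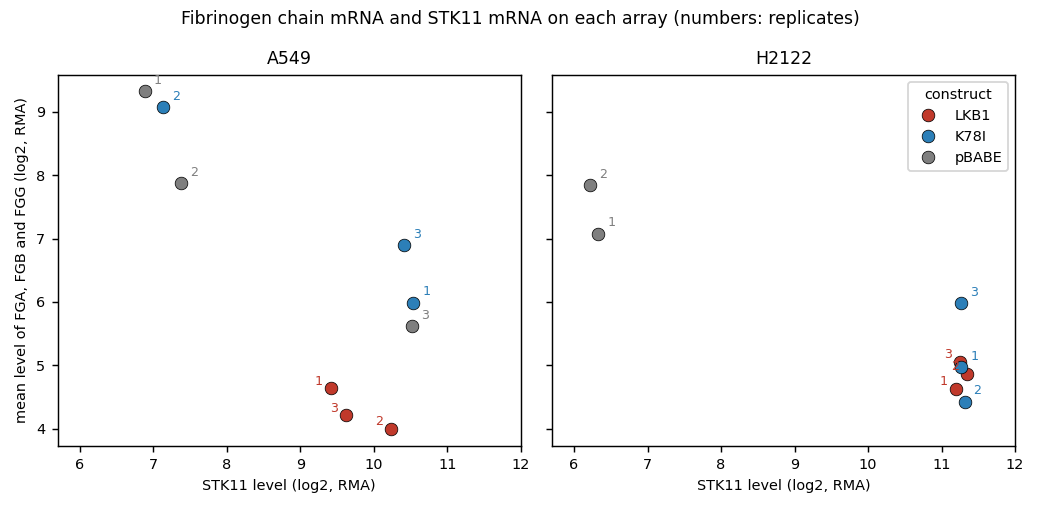
Mean level of FGA, FGB and FGG (y axis, log2 RMA units) against the STK11 level (x axis, log2 RMA units) on each array, by line and construct, with replicate numbers. Arrays with STK11 below 8 lie at 7.08 or higher on the y axis, and the A549 LKB1 arrays at 4.64 or lower.

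Without the 2 A549 controls at odds with their STK11 level, FGA differed by -3.93 ± 0.37, FGB by -2.67 ± 0.51 and FGG by -3.11 ± 0.51 (SE; limma adjusted p = 1.6e-05, 0.00383 and 0.00127). Without the 3 controls low in cell cycle genes, the differences were -2.98, -1.83 and -2.13 (adjusted p = 0.000726, 0.0679 and 0.0225), so that FGB was no longer called. Without LKB1 replicate 2, the array lowest in all 3 chains, the adjusted p was 0.0174 for FGA, 0.119 for FGB and 0.0742 for FGG. Without LKB1 replicate 3 it was 0.0166, 0.142 and 0.0878. FGA is therefore the chain whose call stayed in each of these settings.

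The LKB1 arrays differed from each control taken alone. Against K78I, 4 of the 10 genes fell (FGA, FGL1, VTN and APOH) and 1.69% of all genes did. FGA differed by -3.81 ± 0.79 (SE; limma adjusted p = 0.0108), and FGB and FGG by -2.54 and -2.76 with adjusted p-values of 0.126 and 0.07. Against pBABE, 3 fell (FGA, FGG and VTN), beside 1.72% of all genes. FGA differed there by -3.90 ± 0.79 (adjusted p = 0.0081). These comparisons share the LKB1 arrays.

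FGL1, a hepatokine of the fibrinogen family that binds the inhibitory T-cell protein LAG-3, was at 6.07, 4.69 and 5.65 in A549 with LKB1, against 6.68, 8.23 and 7.89 with K78I and 8.13, 6.42 and 6.40 with pBABE. The groups did not overlap, but LKB1 replicate 1 lay within 0.4 log2 units of the lowest controls. FGL1 fell by 1.82 ± 0.42 (SE; limma adjusted p = 0.0134). Without LKB1 replicate 2 the adjusted p was 0.0919.

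VTN was at 6.12, 4.92 and 5.64 in A549 with LKB1, against 7.98, 9.15 and 8.27 with K78I and 9.33, 8.68 and 7.001 with pBABE. Every LKB1 array was below every control, with the highest LKB1 array at 6.12 and the lowest control at 7.001. VTN fell by 2.84 ± 0.40 (SE), a 7.18-fold difference, with a limma adjusted p of 0.000369, the lowest of the 10 genes. It was called in each of 33 alternative settings, with differences between -3.18 and -2.42. Its promoter is shown because this was the steadiest of the differences. The 250 bases lie at chr17:28370308-28370557 on the minus strand (GRCh38.p14), with the same motifs and the nuclear receptor half-site AGGTCA in capitals.
VTN: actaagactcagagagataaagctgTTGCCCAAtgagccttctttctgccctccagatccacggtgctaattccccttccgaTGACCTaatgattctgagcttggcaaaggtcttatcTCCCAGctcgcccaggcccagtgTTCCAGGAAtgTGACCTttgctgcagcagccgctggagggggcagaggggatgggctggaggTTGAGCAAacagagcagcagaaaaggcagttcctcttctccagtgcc
This window held the STAT motif 109 bases before the start, C/EBP motifs at 225 and 47, CTGGGA at 132 and AGGTCA at 168 and 98. AGGTCA was in 12.1% of the 35116 windows. Among the members with a window analysed here, the STAT motif was found before FGA and VTN alone. The CRE motif TGACGTCA and the FOXA motif TGTTTAC were in no window of the 9 members searched, and in 1.65% and 2.98% of all windows.

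APOH was at 7.88, 6.02 and 7.20 in A549 with LKB1, against 8.33, 8.12 and 8.98 with K78I and 8.82, 7.98 and 8.01 with pBABE. LKB1 replicate 1 came within about 0.1 log2 units of the lowest control. APOH fell by 1.34 ± 0.34 (SE; limma adjusted p = 0.0226), and without LKB1 replicate 2 the difference was -0.83 with an adjusted p of 0.135.

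SERPINA1 had no such difference in A549. It was at 8.54, 8.32 and 8.15 with LKB1, against 8.48, 8.68 and 9.29 with K78I and 9.10, 8.60 and 8.74 with pBABE, and the groups overlapped. The difference was -0.48 with a 95% interval of -1.19 to 0.24 (limma adjusted p = 0.462). Of its 4 nearest measured coding neighbours, all in the serpin cluster and named after their values were seen, 2 fell: SERPINA6, which carries corticosteroids, fell by 1.51 and SERPINA10, which inhibits factor Xa, fell by 0.58 (adjusted p = 0.0143 and 0.0134). SERPINA11 and SERPINA9 differed by -0.15 and 0.06 (adjusted p = 0.584 and 0.828). Both were within the dimmest 30% of genes, at the 27.7 and 18.4 percentiles, where a fall like that of SERPINA6 may not have been visible. AMBP, whose bikunin part inhibits trypsin-like proteases, went the other way, at 6.13, 6.16 and 6.36 with LKB1, against 6.02, 5.67 and 5.71 with K78I and 5.95, 5.64 and 5.80 with pBABE. Its LKB1 arrays were all higher than its controls, but the difference of 0.42 ± 0.13 (SE) did not pass (limma adjusted p = 0.0583). AMBP did pass, as higher, in 5 of 33 alternative settings. ALB and TF were near the floor of the arrays, with mean levels at the 11.2 and 6.5 percentiles of all genes. ALB was between 3.397 and 3.96 and TF between 2.901 and 3.704 log2 units over the 17 arrays. The differences in A549 were -0.08 and -0.11, and neither passed. The other 8 genes had mean levels over both lines above the dimmest 30% of genes. In H2122 alone, APOH (2.86 to 3.79) and FGL1 (median 3.53) were about as low as ALB and TF.

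Neither of the genes beside the fibrinogen cluster, named by position, was called with LKB1 in A549. PLRG1, a splicing factor on the FGB side, differed by -0.30 (limma adjusted p = 0.0887), and LRAT, which esterifies retinol, on the FGG side by 0.06 (0.857). LRAT averaged only 4.45 with K78I and 4.58 with pBABE in A549. A fall as large as that of the chains could therefore not have been seen for LRAT.

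In H2122, 0 of the 10 genes passed the test of LKB1 against controls (limma), beside 7.28% of all genes. An unadjusted p under 0.05 was found for 1 of the 10 and for 3461 of all 17958 genes. The controls themselves were split, with high fibrinogen on the 2 pBABE arrays and lower values on the K78I arrays. FGA was at 4.57, 4.79 and 4.47 with LKB1, against 4.22, 4.46 and 4.71 with K78I and 6.41 and 7.76 with pBABE. FGG was at 4.77, 5.71 and 5.28 with LKB1, against 5.05, 4.86 and 6.52 with K78I and 7.63 and 9.12 with pBABE. FGB was at 4.55, 4.10 and 5.41 with LKB1, against 5.64, 3.96 and 6.70 with K78I and 7.19 and 6.64 with pBABE. LKB1 and K78I arrays overlapped for all 3 chains, and the LKB1 arrays lay below both pBABE arrays. The differences from the mean of both controls were -1.17 ± 0.71 for FGA, -1.49 ± 0.81 for FGB and -1.67 ± 0.74 for FGG (SE; limma adjusted p = 0.422, 0.351 and 0.228).

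Against pBABE alone, FGA differed by -2.48 ± 0.88, FGB by -2.23 ± 1.01 and FGG by -3.12 ± 0.92 (SE; limma adjusted p = 0.134, 0.264 and 0.0633). Against K78I alone the differences were 0.14, -0.75 and -0.23, with 95% intervals of -1.54 to 1.83, -2.67 to 1.17 and -1.98 to 1.53. FGA was at 4.22 to 4.71 on these K78I arrays, as low as on the A549 LKB1 arrays (3.99 to 4.97). A fall of FGA as large as in A549 could therefore not have been seen against K78I. In neither comparison was any of the 10 genes called (0 by limma), beside 5.77% and 3.89% of all genes. Against pBABE, 3 of the 10 and 3114 of all 17958 genes had an unadjusted p under 0.05. Against K78I these counts were 1 and 2858. pBABE replicate 2, the array highest in FGA and FGG, is 1 of the samples with conflicting names and the one lowest in cell cycle genes. Where groups were taken from the source names, the FGA and FGG differences changed sign, to 0.73 and 0.46, with adjusted p-values of 0.82 and 0.905. With the 3 samples of conflicting names left out they were -0.70 and -1.05 (adjusted p = 0.83 and 0.693).

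**Figure D3:**
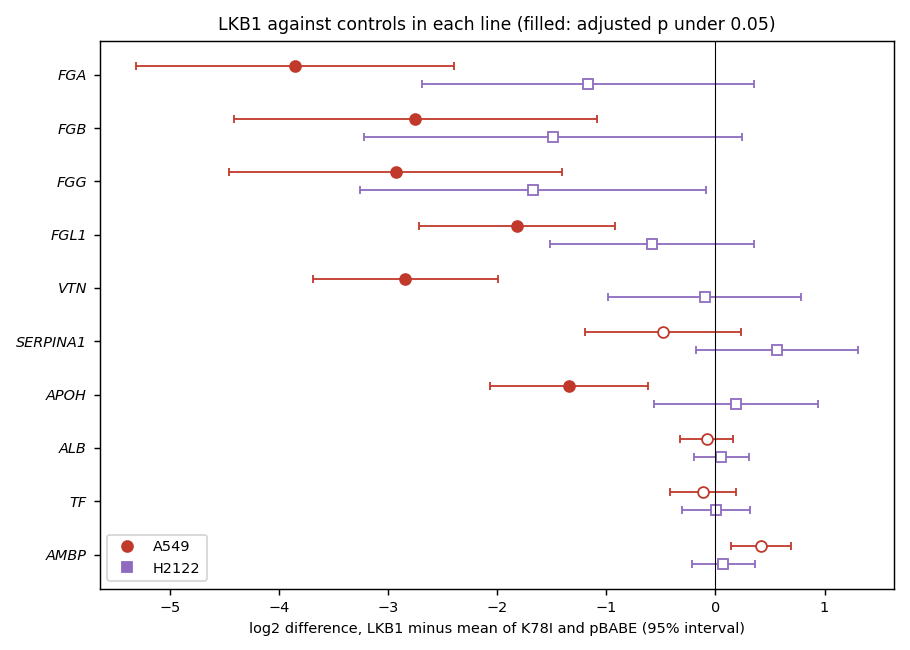
Log2 difference of LKB1 minus the mean of the K78I and pBABE groups (x axis) for each of the 10 genes (y axis) in A549 (circles) and H2122 (squares), with 95% intervals from limma; filled symbols have an adjusted p under 0.05. The A549 symbols of FGA, FGB, FGG, FGL1, VTN and APOH are filled and left of 0, and no H2122 symbol is filled.

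The genes VTN, APOH and FGL1 were lower in H2122 than in A549, with or without LKB1. VTN was at 4.55, 4.47 and 4.40 with LKB1, against 4.50, 4.47 and 4.60 with K78I and 4.92 and 4.32 with pBABE. APOH was between 3.03 and 3.65 with LKB1, against 2.86 to 3.79 on the controls. FGL1 was at 3.20, 3.43 and 3.53 with LKB1, against 3.58, 3.53 and 3.39 with K78I and 3.85 and 5.03 with pBABE. With control levels this low, a fall as large as in A549 could not have been seen for VTN or APOH. For FGL1 the same holds on all controls but pBABE replicate 2. AMBP was at 5.39, 5.85 and 5.55 with LKB1, against 5.66, 5.54 and 5.24 with K78I and 5.61 and 5.53 with pBABE, so its H2122 groups overlapped. SERPINA1, and ALB by 0.13 log2 units near the floor, had every LKB1 array above every K78I array in this line. SERPINA1 was at 5.35, 5.96 and 4.83 with LKB1, against 4.36, 3.75 and 4.07 with K78I and 4.63 and 6.51 with pBABE. The difference of LKB1 from K78I was 1.32 ± 0.39 (SE; limma adjusted p = 0.0747) and did not pass, and the pBABE arrays spanned the LKB1 values. Without pBABE replicate 2 the difference from both controls was 1.04 ± 0.27 and passed (adjusted p = 0.0337).

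The difference between the lines was tested directly. Of the 10 genes VTN alone passed, with an LKB1 effect in A549 minus that in H2122 of -2.75 ± 0.57 log2 units (SE; limma adjusted p = 0.0152), beside 1.98% of all genes called lower. VTN was already low on the H2122 controls, at 4.32 to 4.92, against 7.001 to 9.33 on the A549 controls. A fall as large as in A549 could not have been seen in H2122. The test therefore cannot tell a different response from this lower starting level. The difference of effects was -2.69 ± 0.99 for FGA (adjusted p = 0.186) and -1.53 ± 0.49 for APOH (0.119), so that for these genes a different response of the lines was not shown. For FGB and FGG it was -1.26 in both, with 95% intervals of -3.66 to 1.14 and -3.46 to 0.94. FGA was already low on the H2122 K78I arrays (4.22 to 4.71) and APOH on all H2122 controls (2.86 to 3.79). The lower starting level therefore limits the test for these 2 genes too. Without A549 LKB1 replicate 2 no gene of the 10 passed this test. With the 3 H2122 samples of conflicting names left out VTN did not pass (-2.65, adjusted p = 0.133) and SERPINA1 did (-1.79, adjusted p = 0.0367). With groups taken from the source names both passed, VTN at -2.68 (0.0398) and SERPINA1 at -2.09 (0.0201).

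The kinase-dead control and the empty vector were not separated by the test in either line. In A549, 0 of the 10 genes and 0% of all genes were called by limma, with 0 of the 10 and 472 of all genes at an unadjusted p under 0.05. The differences of K78I from pBABE were -0.09 for FGA, -0.43 for FGB and -0.35 for FGG, each smaller than its SE. In H2122 also 0 of the 10 genes and 0% of all genes were called, with 3 of the 10 and 1260 of all genes at an unadjusted p under 0.05. In the same test STK11 itself, carried by K78I, differed by 5.00 ± 0.94 (SE) and was not called (limma adjusted p = 0.167). With 2 pBABE arrays, 0 calls therefore do not show that these controls were alike. In H2122 every K78I array was below both pBABE arrays for FGA (-2.62 ± 0.88), FGG (-2.89 ± 0.92), FGL1 (-0.94 ± 0.54) and SERPINA1 (-1.51 ± 0.43; SE, adjusted p = 0.592, 0.548, 0.784 and 0.486). This separation too was not counted over all genes.

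The lines were also compared on the control arrays. Of the 10 genes, 5 were higher in A549 than in H2122, beside 20.3% of all genes called higher and 40.3% called in either direction. With the dimmest 30% of genes left out, 5 of the 8 remaining members were called, beside 53.2% of all remaining genes in either direction. APOH differed most, with means of 8.37 ± 0.43 in A549 and 3.18 ± 0.39 in H2122 controls (SD, n = 6 and 5), a difference of 5.23 (limma adjusted p = 1.11e-09). SERPINA1 was higher by 4.002 and VTN by 3.83 log2 units, and FGL1 by 3.32. No A549 control overlapped an H2122 control for these 4 genes, a separation that was not counted over all genes. FGA was higher by 2.55 ± 0.59 (SE; adjusted p = 0.00257), but the arrays overlapped. With the replicate number as a block the FGA difference was 2.81 ± 1.04 (adjusted p = 0.0847), and between the pBABE groups alone it was 1.29 ± 0.88 (0.339), so that FGA was not called in either. FGB and FGG differed by 0.65 and 0.31 and did not pass. Over the 6 groups FGA averaged 8.37 in A549 pBABE, 8.29 in A549 K78I, 7.08 in H2122 pBABE, 4.61 in H2122 LKB1, 4.48 in A549 LKB1 and 4.46 in H2122 K78I. Neighbours in this order overlapped, except that H2122 pBABE lay above H2122 LKB1.

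Within A549 the chains followed each other closely from array to array. Pearson's r over its 9 arrays was 0.97 between FGA and FGB, 0.99 between FGA and FGG and 0.97 between FGB and FGG. In H2122, over 8 arrays, it was 0.61, 0.96 and 0.75. The arrays share their constructs, so these are descriptions without a test. VTN had r = 0.96 with the mean of the chains in A549 and 0.20 in H2122, FGL1 0.87 and 0.83, and APOH 0.68 and -0.65. SERPINA1 had 0.65 and 0.41, and AMBP -0.73 and -0.12.

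Among all other genes, the 5 with the highest r to the chain mean over 17 arrays, each line centred on its own mean, were the gel-forming mucin MUC5B (0.97), the MAP kinase phosphatase DUSP16 (0.96), the metabolic coactivator PPARGC1A (0.95), the endothelial nitric oxide synthase trafficking protein NOSTRIN (0.95) and the transmembrane mucin MUC13 (0.95). All 5 fell with LKB1 in A549, with log2 differences of -3.70, -2.06, -3.30, -1.94 and -2.75 (limma adjusted p = 0.0193, 0.0198, 0.0164, 0.0197 and 0.0136). The 3 with the lowest r were the homeobox factor PBX3 (-0.95), the calcium channel subunit CACNG4 (-0.94) and FAM171A1 (-0.93). The likeness includes the difference between LKB1 and controls, so a fall in A549 was largely built into the choice of the 5 genes. Their p-values are therefore no separate support. In H2122 none of the 5 was called with LKB1 (limma adjusted p from 0.242 to 0.701).

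A minority of other liver-type plasma proteins were called in A549, in both directions. Of 46 listed genes 42 were measured, and 3 rose and 5 fell with LKB1, with a median of -0.07 beside -0.02 for all genes. C4BPB, 1 of the 3 that rose and named after its values were seen, was at the 2.1 percentile, near the floor. Over all genes 5.49% were called higher and 2.95% lower. Complement C3, the central complement protein, averaged 6.17 ± 0.42 with LKB1, against 8.57 ± 0.25 with K78I and 9.09 ± 0.36 with pBABE (SD, n = 3 each), and fell by 2.65 (limma adjusted p = 3.38e-05). The retinol carrier RBP4 averaged 5.14 ± 0.64 with LKB1, against 7.77 ± 1.20 and 8.20 ± 1.60, and fell by 2.85 (0.00499). SERPINF1, the pigment epithelium-derived factor, rose by 2.46, to 8.51 ± 0.23 against 6.04 ± 0.24 and 6.06 ± 0.36. In H2122, 5 of these genes rose and 0 fell, beside 4.99% and 2.29% of all genes. The serum amyloid A genes SAA1, SAA2 and SAA4, acute-phase apolipoproteins, rose by 1.64, 1.68 and 0.89 there (limma adjusted p = 0.00275, 0.0076 and 0.00151), and SERPINF1 rose by 1.41. The LKB1 effect differed between the lines for C3 (-2.30), SAA1 (-1.64), SAA2 (-1.92) and SAA4 (-0.79), each lower in A549 (adjusted p = 0.00525, 0.0392, 0.0419 and 0.0447).

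Genes of coagulation, fibrinolysis and the integrins that bind fibrinogen and vitronectin had calls in both lines. Of 28 listed genes 26 were measured, and 4 rose and 5 fell with LKB1 in A549, while 6 rose and 0 fell in H2122. Beside these counts, 5.49% of all genes were called higher and 2.95% lower in A549, and 4.99% and 2.29% in H2122. The list's median was -0.08 in A549 and 0.23 in H2122. ITGAV and ITGB3, the chains of the vitronectin receptor, rose by 1.45 and 1.92 in A549 and by 1.503 and 1.02 in H2122. PLAU, the urokinase that activates plasminogen, rose by 1.52 in A549 and by 2.03 in H2122. PLAT, the tissue plasminogen activator, rose by 1.96 in H2122 (limma adjusted p from 1.59e-05 to 0.00383 for these 7 values). PLAT also rose by 1.22 in A549 (0.0106). ITGB5, another partner of ITGAV, fell by 0.85 in A549. The other 4 that fell there, named after their values were seen, were the clotting factors F5 (-1.81), F7 (-1.44) and F2 (-0.69) and the protease inhibitor TFPI2 (-1.06), with limma adjusted p-values of 0.00552, 0.0145, 0.0211 and 0.0285.

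**Figure D4:**
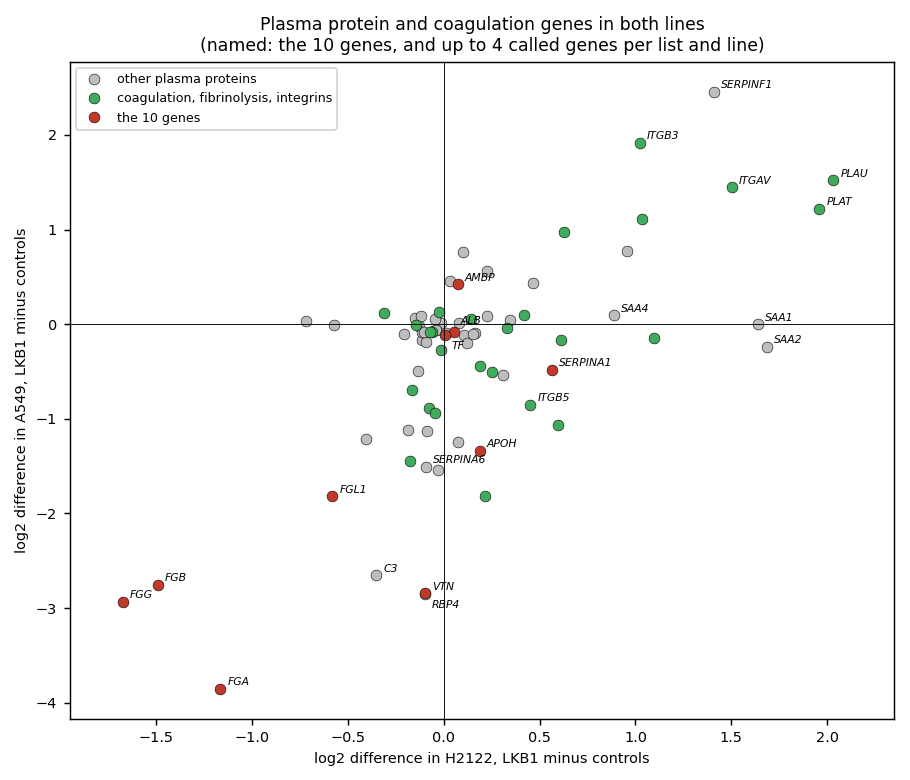
Log2 difference of LKB1 minus controls in A549 (y axis) against that in H2122 (x axis) for the 10 genes, other plasma protein genes and genes of coagulation, fibrinolysis and integrins; named are the 10 genes and, per list and line, up to 4 called genes with the lowest adjusted p. FGA, FGB and FGG lie at the lower left, VTN and RBP4 lie near -2.8 in A549 and near 0 in H2122, and PLAU, ITGAV and ITGB3 lie at the upper right.

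Genes of acute-phase signalling and hepatic transcription factors were counted in the same way. Of 16 signalling genes 2 rose and 1 fell with LKB1 in A549, beside 5.49% and 2.95% of all genes: JAK1 rose by 0.83, SOCS3 rose by 0.50 and CEBPB, which encodes a C/EBP factor of the acute phase, fell by 1.39 (limma adjusted p = 0.00261, 0.0387 and 0.00494). In H2122, 3 rose and 1 fell, beside 4.99% and 2.29% of all genes, with the interleukin-6 co-receptor IL6ST up by 0.84 and the glucocorticoid receptor NR3C1 down, at -0.70. Of 17 hepatic factors 13 were measured. In A549 0 of the 13 were called by limma with LKB1. In H2122 FOXA2 rose by 0.58 and ONECUT2 differed by -0.83. On control arrays 7 of the 13 were higher in A549 than in H2122 and 1 was lower, beside 20.3% and 20.1% of all genes, with NR5A2 higher by 4.37, FOXA2 by 2.53 and GATA4 by 1.55, and FOXA1 lower, at -1.50.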

How the data were processed

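RNA from 17 samples was measured on 1 Affymetrix array each, starting from 130 ng total RNA (per the labels' protocols). Per the submitters' processing notes, the deposited log2 values come from RMA, run by the authors in Expression Console 1.1 of Affymetrix; no source used here names a genome build. RMA makes array distributions alike, so a shift of most genes cannot be seen, and no detection calls were used. Array medians lay between 5.62 and 5.73, and precision is limited by how few arrays there are. Of 33297 probe sets 19181 had 1 symbol, 2055 several, and 12061 were not listed. The brightest probe set of each gene was used, for 17958 genes. Titles gave the groups. Limma 3.58.1 in R 4.3.3 fitted 6 groups with a shared spread, with Benjamini-Hochberg adjustment and a threshold of 0.05, and was tested on simulated data. LKB1 was set against the equal-weight mean of both control groups. The members, gene lists and alternatives were chosen with earlier results of these data known. All 10 members are named; of each list, up to 4 called genes with the lowest adjusted p. Promoter windows came from RefSeq (GRCh38.p14). Figures used matplotlib 3.10.9.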

Additional observations from a re-analysis of the deposited data

Results flagged for a closer look

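VTN was picked out because the LKB1 effect differed between the lines by the interaction test: the A549 effect minus the H2122 effect was -2.75 log2 units (limma adjusted p = 0.0152). VTN was at 6.12, 4.92 and 5.64 with LKB1 in A549, against 7.001 to 9.33 on its controls, and at 4.40 to 4.55 with LKB1 in H2122, against 4.32 to 4.92 on its controls. VTN was thus already low on the H2122 controls, where a fall as large as in A549 could not have been seen. Over 32 alternatives the difference of effects lay between -3.08 and -2.18, with adjusted p-values between 0.000295 and 0.133, and it missed the threshold in 3: the 3 samples of conflicting names left out (0.133), pBABE alone as control (0.0651) and A549 LKB1 replicate 2 left out (0.0506).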

How the results depend on the processing

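Of 1292 values of the 10 genes in 4 comparisons under up to 33 alternatives, 1231 kept their side of the threshold, 35 lost it, 26 gained it and 0 called values turned round. In A549 the number of the 10 genes called was 6 as reported, 2 when each line was fitted alone, 3 with pBABE alone as control, and 2 to 7 when 1 array was left out (2 without LKB1 replicate 2, 3 without LKB1 replicate 3). FGA and VTN passed in all 33 alternatives, while FGB missed the threshold in 16, FGG in 6, APOH in 5 and FGL1 in 3. AMBP, not called as reported, was called higher in 5 of the 33. Without K78I replicate 1, AMBP was 1 of the 7 genes called, and the other 6 were lower. In H2122 the number was 0 as reported, 1 with the 3 samples of conflicting names out (SERPINA1, higher), 1 with the 2 A549 controls at odds with their STK11 level out (FGG, lower), 1 with the 3 controls low in cell cycle genes out (SERPINA1), 1 when each line was fitted alone (FGA, lower), and 0 to 1 when 1 array was left out (SERPINA1 without pBABE replicate 2). For the difference between lines it was 1 as reported (VTN), 1 with the 3 samples of conflicting names out (SERPINA1, not VTN), and 2 with the replicate block (VTN and APOH), with grouping by source name (VTN and SERPINA1), with those 2 or those 3 controls out and with array weights, 0 with pBABE alone as control, and 0 to 2 when 1 array was left out (0 without A549 LKB1 replicate 2). Between lines on control arrays it was 5 as reported, 4 with the replicate block and with pBABE alone as control (FGA lost in both), 6 with grouping by source name and with pooled controls, and 5 to 6 when 1 array was left out. For K78I against pBABE in H2122 it was 0 as reported and 0 to 1 when 1 array was left out (SERPINA1 without pBABE replicate 1). The causes were not tested. The replicate block kept 6 in A549 and 0 in H2122. Same-numbered samples were not taken as pairs in the main fit. Their deviations from the group means had correlations from -0.64 to 0.42, over 0.1 in 10 of 16 such pairs. These correlations took both signs in A549, but in H2122 all were above 0, from 0.06 to 0.42. Whether same-numbered H2122 samples shared a batch was not tested. ALB and TF were below the filter on the dimmest 30% of genes and had no value there. With no detection calls, levels near the floor cannot be ordered.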

Other observations

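Receptors that clear plasma proteins were counted as well, and few were called with LKB1. Of 13 listed genes 12 were measured. In A549 2 fell and 0 rose, beside 2.95% and 5.49% of all genes: ASGR1 fell by 0.85 and the transferrin receptor TFRC fell by 0.55 (limma adjusted p = 0.0107 and 0.0149). ASGR1 averaged 5.21 ± 0.11 with LKB1, against 6.13 ± 0.13 with K78I and 5.98 ± 0.59 with pBABE (SD, n = 3 each). In H2122 1 rose and 0 fell, beside 4.99% and 2.29% of all genes: the scavenger receptor LRP1 rose by 1.58 (adjusted p = 0.00328). On control arrays FCGRT, the receptor that recycles albumin, was 1.85 log2 units higher in A549 than in H2122, and ASGR1 was 1.45 higher.

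Some coagulation and adhesion genes had LKB1 effects that differed between the lines by the interaction test, each lower in A549: ITGB5 (-1.30), the inhibitor TFPI2 (-1.66), ITGA5 (-1.24) and ITGB1 (-0.78), with limma adjusted p-values of 0.00802, 0.0355, 0.0369 and 0.0407.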
